A study of Mus musculus with 8 samples.

Results

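MHC class II molecules are pairs of an alpha and a beta chain that display peptides from outside the cell to helper T cells. The genes described here are H2-Aa and H2-Ab1, which encode the chains of the I-A molecule, H2-Ea and H2-Eb1, which encode those of the I-E molecule, H2-DMa and H2-DMb1, which encode the exchange factor that loads peptide, Cd74, the invariant chain that escorts new class II molecules, and Ciita, the coactivator that switches the family on. They were found as every probe set of the value table whose platform annotation names one of these 8 genes, which gave 19 of 45037 probe sets. Of the 19, 17 name 1 gene and 2 name H2-DMb1 together with its close copy H2-DMb2, so H2-DMb1 has no probe set of its own.

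Islet RNA was compared between mice of the inbred strains AKR/J and C57Bl/6J after 3 months of high-fat feeding in both. There were 4 samples of each strain, every one pooled from 2 mice and run on its own array. Arrays 1 to 4 held AKR/J and arrays 5 to 8 held C57Bl/6J. No allele, transgene or drug is named in the labels, the age was not stated, and no group on another diet was used here. Between 43.7% and 47.0% of probe sets were detected on the AKR/J arrays and between 45.7% and 48.1% on the C57Bl/6J arrays. Of 8 measured endocrine islet markers, 8 were detected on every array. The arrays also held exocrine RNA. The summed intensity of 11 acinar markers was 155419 to 179592 on AKR/J arrays and 250654 to 258525 on C57Bl/6J arrays.

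In most tissues class II is made by professional antigen-presenting cells, which are dendritic cells, macrophages and B cells, and other cells make it after exposure to interferon gamma. Interferon gamma switches on Ciita, and CIITA in turn binds a complex of RFX, CREB and NF-Y proteins that sits on X and Y boxes shared by class II promoters. In islets, resident macrophages are the best known class II positive cells. AKR mice carry the k haplotype of the MHC and C57BL/6 mice the b haplotype, in which a deletion in the H2-Ea promoter stops transcription of H2-Ea, so that these mice lack surface I-E. The class II chains of the haplotypes differ in sequence, and a sequence difference between the strains under a probe could change its signal without a change in transcript. This was not tested, and it bears on every H2 probe set below.

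The promoters of H2-Aa, H2-Eb1 and H2-DMb1 are shown because they hold the letters of the shared X and Y boxes. They are RefSeq sequences of the C57BL/6J reference (GRCm38.p6), from 250 bases before to 50 after the annotated start. Capitals mark GNAAC, a half-site of the X box, and GATTGG, the core of the Y box, where GATTGG follows GNAAC by 20 to 40 bases.
H2-Aa, chr17:34287774-34288073, minus strand: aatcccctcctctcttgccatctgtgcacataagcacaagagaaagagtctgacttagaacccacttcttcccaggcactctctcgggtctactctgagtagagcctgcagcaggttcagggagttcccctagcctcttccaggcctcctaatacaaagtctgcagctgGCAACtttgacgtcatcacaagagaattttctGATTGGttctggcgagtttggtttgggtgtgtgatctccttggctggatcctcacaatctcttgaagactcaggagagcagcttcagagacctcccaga
H2-Eb1, chr17:34305617-34305916, plus strand: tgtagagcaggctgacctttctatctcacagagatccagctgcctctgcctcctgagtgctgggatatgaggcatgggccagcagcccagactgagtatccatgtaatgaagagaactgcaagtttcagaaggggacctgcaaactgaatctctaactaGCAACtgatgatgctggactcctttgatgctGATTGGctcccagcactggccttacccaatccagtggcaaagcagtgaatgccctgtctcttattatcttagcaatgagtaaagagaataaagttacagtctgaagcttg
H2-DMb1, chr17:34152941-34153240, plus strand: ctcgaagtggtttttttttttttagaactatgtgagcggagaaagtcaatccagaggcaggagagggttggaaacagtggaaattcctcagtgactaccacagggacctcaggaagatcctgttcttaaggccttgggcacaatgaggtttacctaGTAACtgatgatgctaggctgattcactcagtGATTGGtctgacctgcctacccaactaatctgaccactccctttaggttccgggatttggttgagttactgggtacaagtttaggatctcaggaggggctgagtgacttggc
The gap was 27 bases in H2-Aa, 26 in H2-Eb1 and 27 in H2-DMb1. Searched on both strands of 32851 promoters of this length, the arrangement was present in 1.17%, GATTGG at any place in 16.1% and GNAAC at any place in 84.8%. The pair of H2-DMa promoters in the table did not hold these letters in this arrangement. Promoters of 4 of the 8 genes were matched, and H2-Ab1, H2-Ea, Cd74 and Ciita were not.

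H2-Aa, H2-Ab1, H2-Eb1 and Cd74 were lower in AKR/J islets, while H2-DMa did not pass the test and H2-Ea, H2-DMb1 and Ciita were at or near background in both strains. Values are log2 intensities after GCRMA unless called Signal, which is the deposited per-array value on a linear scale. Differences are AKR/J minus C57Bl/6J, from limma over the 20772 probe sets that were detected (detection p under 0.05) on at least 4 of 8 arrays, with a call at an adjusted p under 0.05. Of the 10 members that met this filter, 9 were called lower and 0 higher, where 7.7% of all tested probe sets were called lower and 6.59% higher. The 9 are not separate results, since 4 measure H2-Aa, 3 H2-Ab1, 1 H2-Eb1 and 1 Cd74. By genes, each by its brightest tested probe set, 8.53% of 10891 were called lower. Of the 9 probe sets, 3 met the filter through C57Bl/6J arrays alone, so the count of 9 rests partly on the filter. Of the 5 members detected on all 8 arrays 4 were lower, against 8.66% of the probe sets detected on all 8 arrays. With no filter, 9 of all 19 were lower and 0 higher, against 2.43% lower and 2.21% higher of 45037. For 9 of the 10 tested members every AKR/J array lay below every C57Bl/6J array, as in 10.6% of tested probe sets. With the Signal in place of GCRMA, 8 of the 10 were lower (5.8% of tested probe sets), and with the Signal and no filter 7 of the 19 were lower (1.09% of 45037). Those 7 included 1449580_s_at, shared by H2-DMb1 and H2-DMb2, which was not detected on any array and was not called by GCRMA. They left out Cd74 (limma adjusted p = 0.0581), H2-Aa 1452431_s_at (0.0537) and H2-Aa 1438858_x_at (0.177). Fewer cells of a type and less RNA per cell cannot be told apart in these pools.

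**Figure D1:**
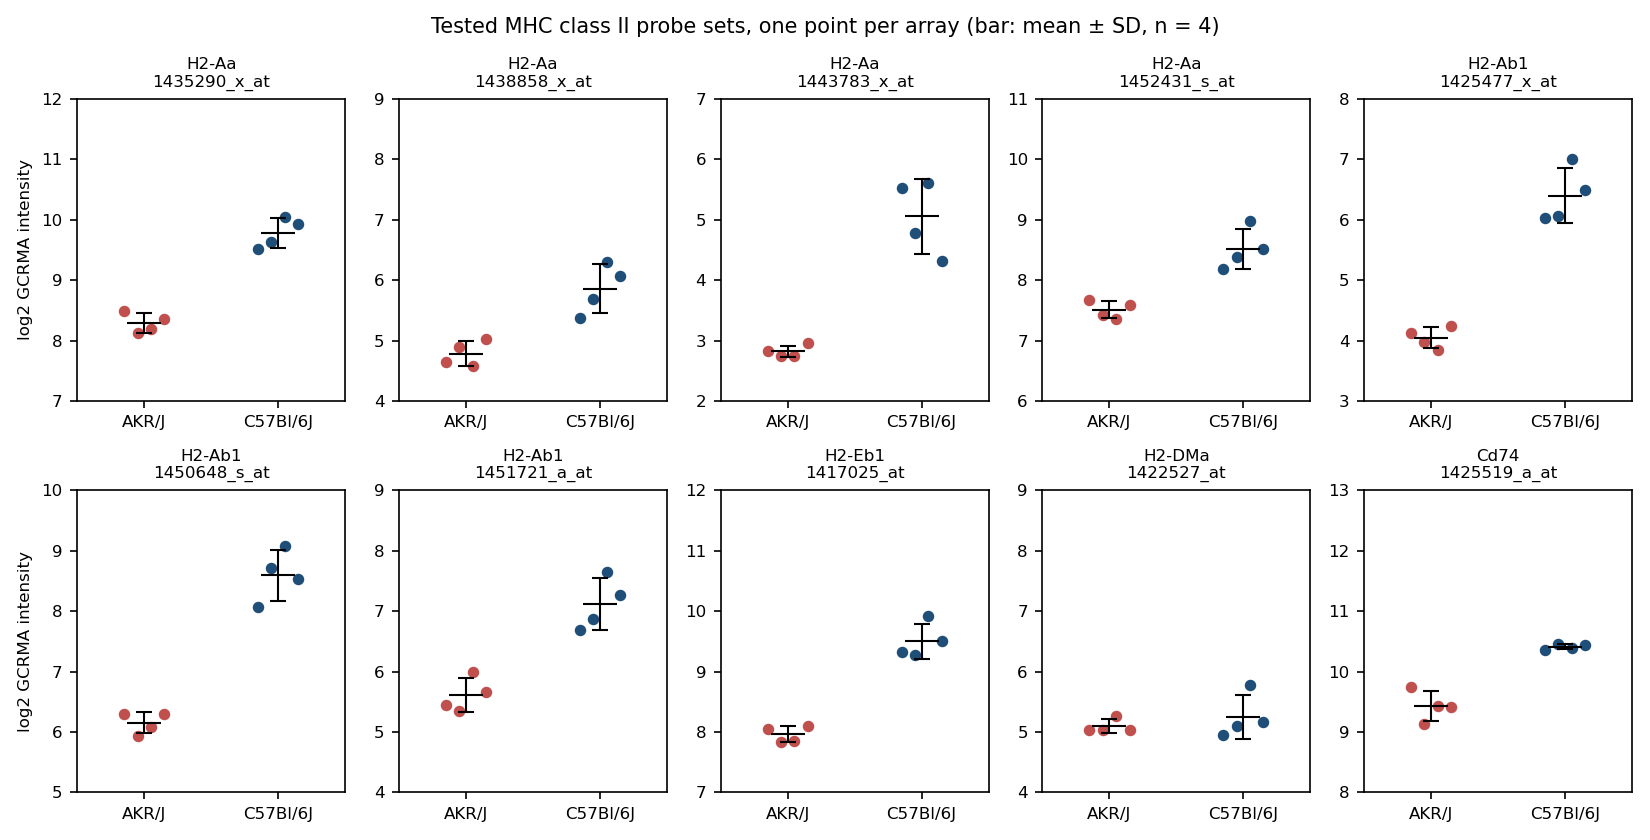
Log2 GCRMA intensity (y axis, each panel spanning 5 units) of the 10 tested class II probe sets by strain, one point per array, with the mean and SD of 4 arrays as bars. In the panels of H2-Aa, H2-Ab1, H2-Eb1 and Cd74 every AKR/J point lies below every C57Bl/6J point, while the strains overlap for H2-DMa.

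H2-Aa, the alpha chain of I-A, was measured by 4 probe sets. The probe set 1435290_x_at was at 8.49, 8.12, 8.19 and 8.35 on AKR/J arrays 1 to 4, against 9.51, 9.63, 10.04 and 9.92 on C57Bl/6J arrays 5 to 8. Its Signal was 967.5, 795.5, 667.1 and 770.8 in AKR/J islets, against 1745.4, 1959.9, 2460.9 and 2168.4 in C57Bl/6J islets. The strains did not overlap on either scale, and AKR/J arrays varied less than C57Bl/6J arrays on both. The log2 difference was -1.49 (SE 0.139, 2.80-fold lower; limma adjusted p = 0.000364). A second probe set detected on all arrays, 1452431_s_at, averaged 7.51 ± 0.15 in AKR/J islets, against 8.52 ± 0.34 in C57Bl/6J islets (SD, n = 4 each), and was 2.01-fold lower (limma adjusted p = 0.00598).

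The other H2-Aa probe sets, 1438858_x_at and 1443783_x_at, were detected on 0 of 4 AKR/J arrays and 4 of 4 C57Bl/6J arrays. For such probe sets the fold is an estimate that rests on AKR/J values not called detected, so its size is uncertain. H2-Aa was 4.72-fold lower in AKR/J by 1443783_x_at, at 2.82 ± 0.10 in AKR/J islets, against 5.06 ± 0.62 in C57Bl/6J islets (SD, n = 4 each). Its limma adjusted p was 0.00151 with the filter and 0.00858 without it. By 1438858_x_at H2-Aa was 2.11-fold lower (limma adjusted p = 0.0117 with the filter, 0.0413 without it and 0.0517 with the Signal). All 4 probe sets of this gene were thus lower in AKR/J by GCRMA, by sizes from 2.01-fold to 4.72-fold. Of these, 1438858_x_at and 1443783_x_at met the filter through C57Bl/6J arrays alone.

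H2-Ab1, the beta chain of I-A, was measured by 3 probe sets and was lower in AKR/J by each. The probe set 1450648_s_at was at 6.30, 5.93, 6.09 and 6.30 in AKR/J, against 8.06, 8.71, 9.08 and 8.53 in C57Bl/6J. It was detected on array 3 alone among the AKR/J arrays and on all 4 C57Bl/6J arrays. Its Signal was 202.2, 184.0, 220.1 and 199.7 in AKR/J, against 369.4, 527.5, 674.7 and 465.2 in C57Bl/6J. The strains were apart on both scales, but the size depended on the scale: the log2 difference was -2.44 (SE 0.204; limma adjusted p = 0.000205) by GCRMA and -1.29 (adjusted p = 0.00257) by the Signal.

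A second H2-Ab1 probe set, 1451721_a_at, was at 5.44, 5.35, 5.99 and 5.67 in AKR/J islets, against 6.70, 6.87, 7.65 and 7.27 in C57Bl/6J islets. It was detected on 3 of 4 AKR/J arrays and 4 of 4 C57Bl/6J arrays, with a difference of -1.51 by GCRMA (limma adjusted p = 0.00374) and -1.94 by the Signal. The last H2-Ab1 probe set, 1425477_x_at, was not detected in AKR/J and met the filter through C57Bl/6J arrays alone. It was 5.11-fold lower in AKR/J by GCRMA (limma adjusted p = 0.000353 with the filter and 0.00262 without it). The log2 difference was -2.35 by GCRMA and -2.04 by the Signal.

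H2-Eb1, the beta chain of I-E, has 1 probe set, 1417025_at, which was detected on all 8 arrays and is not marked as shared with other transcripts. It was at 8.05, 7.84, 7.86 and 8.10 in AKR/J islets, against 9.32, 9.28, 9.92 and 9.50 in C57Bl/6J islets. Its Signal was 496.0, 466.3, 442.0 and 513.1 in AKR/J, against 1007.1, 1052.1, 1264.5 and 1209.0 in C57Bl/6J. The highest AKR/J array stayed below the lowest C57Bl/6J array on both scales. The difference was -1.54 (SE 0.147, 2.91-fold lower; limma adjusted p = 0.000421).

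H2-Ea, the alpha chain that pairs with H2-Eb1 in I-E, was not detected on any of the 8 arrays by any of its 3 probe sets. The GCRMA values of 1422891_at were 4.55, 4.28, 4.37 and 4.08 in AKR/J, against 3.99, 3.98, 4.06 and 4.20 in C57Bl/6J. Its Signal was 21.2, 25.8, 12.0 and 7.1 in AKR/J, against 5.1, 10.7, 42.8 and 11.5 in C57Bl/6J. The strains overlapped on both scales, and with no filter the log2 difference was 0.27 (95% interval 0.02 to 0.51; limma adjusted p = 0.255). The other H2-Ea probe sets differed by 0.09 and 0.04 with no filter. H2-Ea was thus not detected in either the k-haplotype or the b-haplotype strain. With both strains undetected, the size of any difference could not be measured here.

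Cd74, the invariant chain, lies on another chromosome than the H2 genes. Its only probe set, 1425519_a_at, was at 9.75, 9.13, 9.43 and 9.42 in AKR/J, against 10.36, 10.46, 10.39 and 10.44 in C57Bl/6J. Its Signal was 1113.9, 770.1, 842.3 and 857.5 in AKR/J islets, against 1453.2, 1579.4, 1451.6 and 1669.3 in C57Bl/6J islets. The strains did not overlap, and the GCRMA values of the C57Bl/6J arrays lay closer together (SD 0.04) than those of the AKR/J arrays (SD 0.25). The difference was -0.98 (SE 0.122, 1.98-fold lower; limma adjusted p = 0.00151).

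H2-DMa, the alpha chain of the peptide exchange factor, was detected on all 8 arrays by 1422527_at. It was at 5.04, 5.04, 5.26 and 5.03 in AKR/J, against 4.94, 5.10, 5.77 and 5.17 in C57Bl/6J, and the strains overlapped. The difference of -0.15 did not pass (95% interval -0.55 to 0.24; limma adjusted p = 0.591). Without C57Bl/6J array 7 it was 0.02, so its sign rests on that array. The second H2-DMa probe set, 1459872_x_at, was not detected on any array.

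H2-DMb1, the partner of H2-DMa, is covered by probe sets shared with H2-DMb2. The probe set 1418638_at was detected on C57Bl/6J array 7 alone, with a Signal of 14.3 to 24.9 in AKR/J islets, against 8.4 to 40.4 in C57Bl/6J islets. The shared probe set 1449580_s_at was not called detected on any array. Its Signal was nevertheless 23.3, 15.7, 16.3 and 12.6 in AKR/J, against 56.7, 36.4, 70.9 and 73.7 in C57Bl/6J, with no overlap. On that scale with no filter it differed by -1.78 (limma adjusted p = 0.0351), while by GCRMA the strains overlapped and the difference was -0.37 (adjusted p = 0.404).

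Ciita, the coactivator of the family, was near background by all 3 probe sets. The probe set 1421210_at was detected on AKR/J arrays 1 and 3 and on C57Bl/6J array 6. Its Signal was 36.2, 22.5, 30.0 and 20.7 in AKR/J, against 31.9, 47.4, 22.3 and 26.2 in C57Bl/6J, and the strains overlapped. By GCRMA it lay between 2.63 and 2.79 in AKR/J and between 2.60 and 2.63 in C57Bl/6J, a difference of 0.09 (95% interval -0.01 to 0.19; limma adjusted p = 0.31 with no filter). At this level the AKR/J arrays lay just above the C57Bl/6J arrays with no overlap, as they did for 17.6% of all 45037 probe sets. The other Ciita probe sets, 1421211_a_at and 1447075_at, were not detected on any array. With signals this close to background, the size of any strain difference in Ciita could not be measured.

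**Figure D2:**
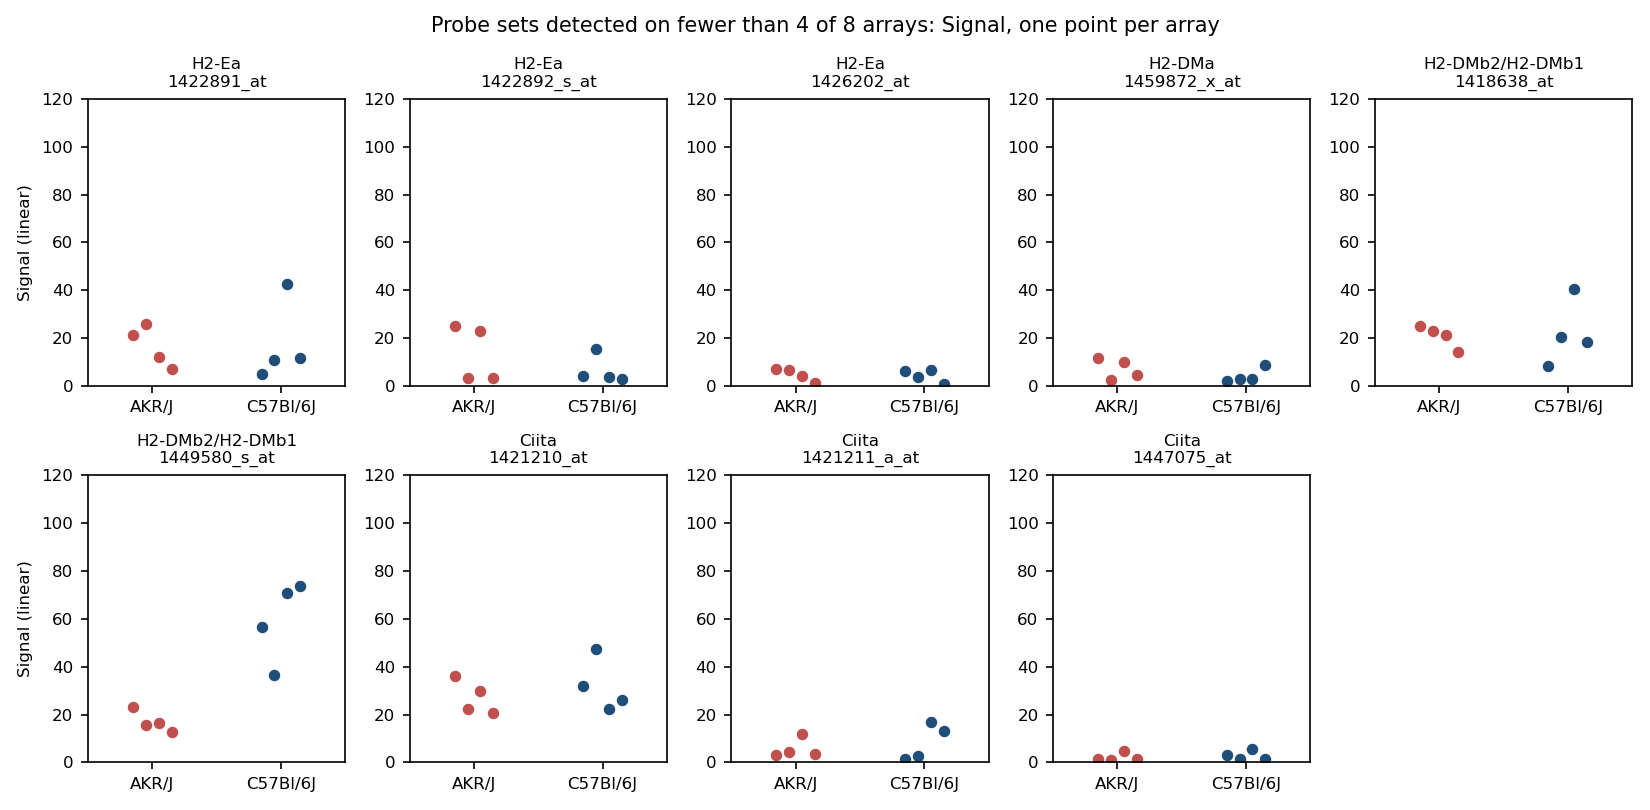
Signal (linear, y axis from 0 to 120) of the 9 class II and Ciita probe sets detected on fewer than 4 of 8 arrays, one point per array by strain. The points of AKR/J and C57Bl/6J overlap in 8 panels, and in that of 1449580_s_at the AKR/J arrays (12.6 to 23.3) lie below the C57Bl/6J arrays (36.4 to 73.7).

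**Figure D3:**
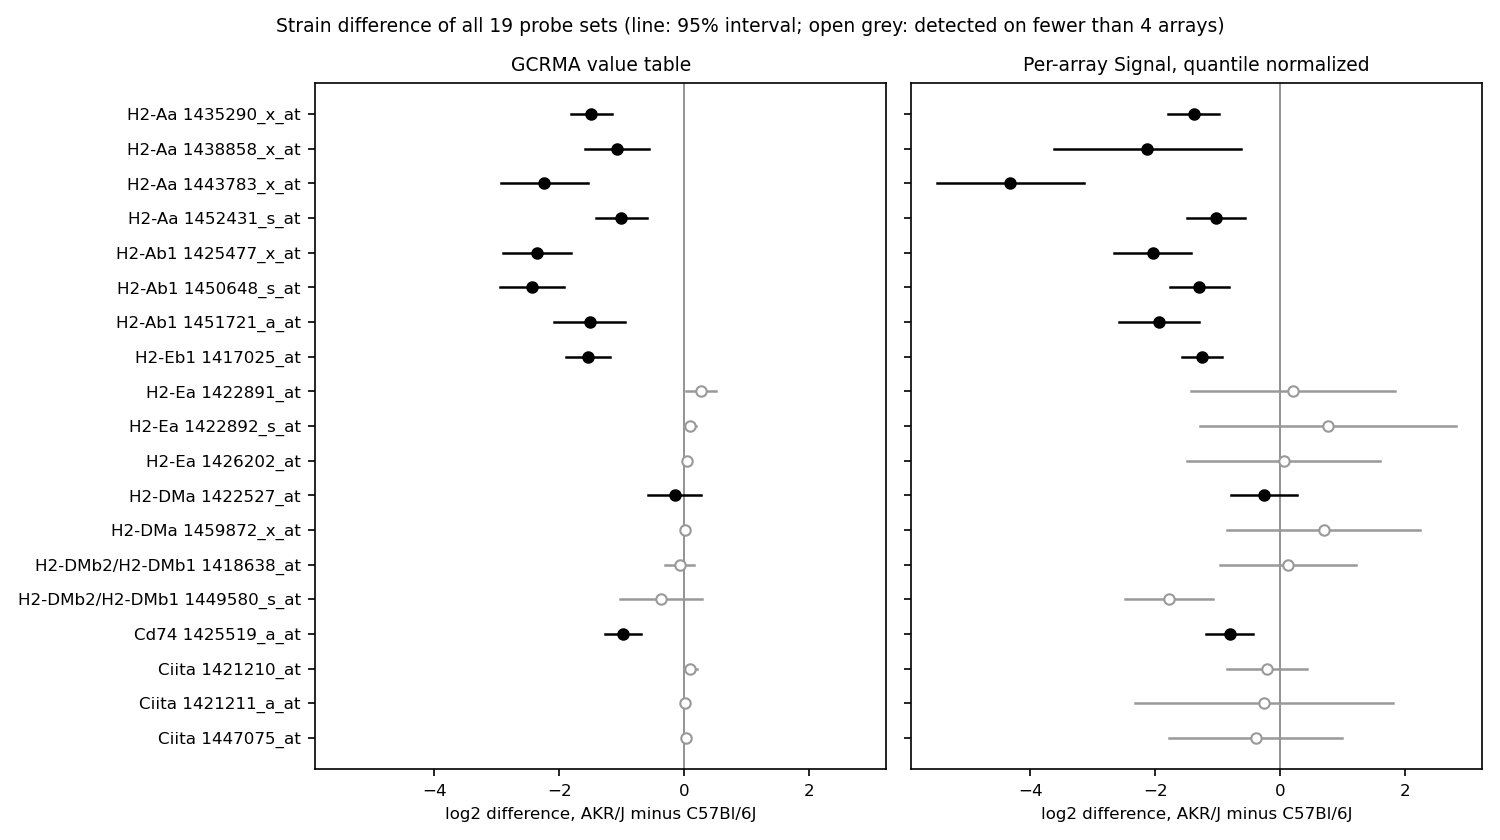
Log2 difference of AKR/J minus C57Bl/6J (x axis) for all 19 probe sets, from the fits with no filter on GCRMA values (left) and on the quantile normalized Signal (right), with 95% intervals as lines and probe sets detected on fewer than 4 arrays in open grey. The probe sets of H2-Aa, H2-Ab1, H2-Eb1 and Cd74 have intervals below 0 in both panels, and the interval of H2-DMa 1422527_at crosses 0 in both.

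The sizes of the differences were compared within arrays, in a step added after the differences were seen. Cd74, the denominator, had the smallest difference of the called members (-0.98). The direction of the H2-Aa and H2-Eb1 ratios was thus known beforehand, and their p-values are no independent support. On each array the log2 ratio of a member to Cd74 was taken, and its strain difference was tested by exact permutation of the strain labels (two-sided, 70 assignments). For H2-Aa the ratio differed by -0.51 and for H2-Eb1 by -0.56 (exact p = 0.0286 each, the smallest possible; adjusted 0.0381 over 4 ratios). The fourth, of H2-Ab1, is not given because its brightest probe set was not detected on 3 of 4 AKR/J arrays. The p was 0.0571 for H2-Aa without AKR/J array 1 or 3 and for H2-Eb1 without any 1 of the 4 AKR/J arrays (exact permutation). The ratio of H2-DMa to Cd74 was higher in AKR/J by 0.83 and did not pass (exact p = 0.0571; 0.0286 without C57Bl/6J array 7). With the Signal the ratios of H2-Aa and H2-Eb1 to Cd74 differed by -0.57 and -0.43 (exact p = 0.0286 each). These values describe unequal differences between probe sets and say nothing of the levels of one gene against another.

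Within a strain the brightest probe sets of H2-Aa, H2-Ab1 and H2-Eb1 varied together from array to array. That of H2-Ab1, 1450648_s_at, was detected on array 3 alone among the AKR/J arrays, so its AKR/J deviations are less certain. Over the 8 arrays, after subtraction of strain means, the brightest probe sets of H2-Aa and H2-Eb1 correlated at r = 0.87, those of H2-Aa and H2-Ab1 at r = 0.79 and those of H2-Ab1 and H2-Eb1 at r = 0.77, as a description of arrays that share their RNA and processing. The H2-Aa probe set 1443783_x_at did not follow these brightest probe sets closely, at r = -0.02 with H2-Aa 1435290_x_at, 0.10 with H2-Ab1 1450648_s_at and 0.40 with H2-Eb1. Cd74 followed them less closely as well, at r = 0.52 with H2-Aa, 0.22 with H2-Eb1 and 0.38 with H2-Ab1. H2-DMa correlated with H2-Eb1 at r = 0.77. In C57Bl/6J, array 7 was the highest and array 5 the lowest for H2-Aa and H2-Ab1, while Cd74 deviated by at most 0.05 on those arrays. In AKR/J, array 2 was the lowest for H2-Aa, H2-Ab1, H2-Eb1 and Cd74. Strain means alone were subtracted, not the split of arrays 1, 2, 5 and 6 from 3, 4, 7 and 8 described at the end. In C57Bl/6J, H2-Aa lay at -0.26 and -0.15 on arrays 5 and 6, and at 0.27 and 0.15 on arrays 7 and 8. In AKR/J it lay at 0.20 and -0.17 on arrays 1 and 2, and at -0.10 and 0.06 on arrays 3 and 4. The part of that split in these correlations was not tested.

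**Figure D4:**
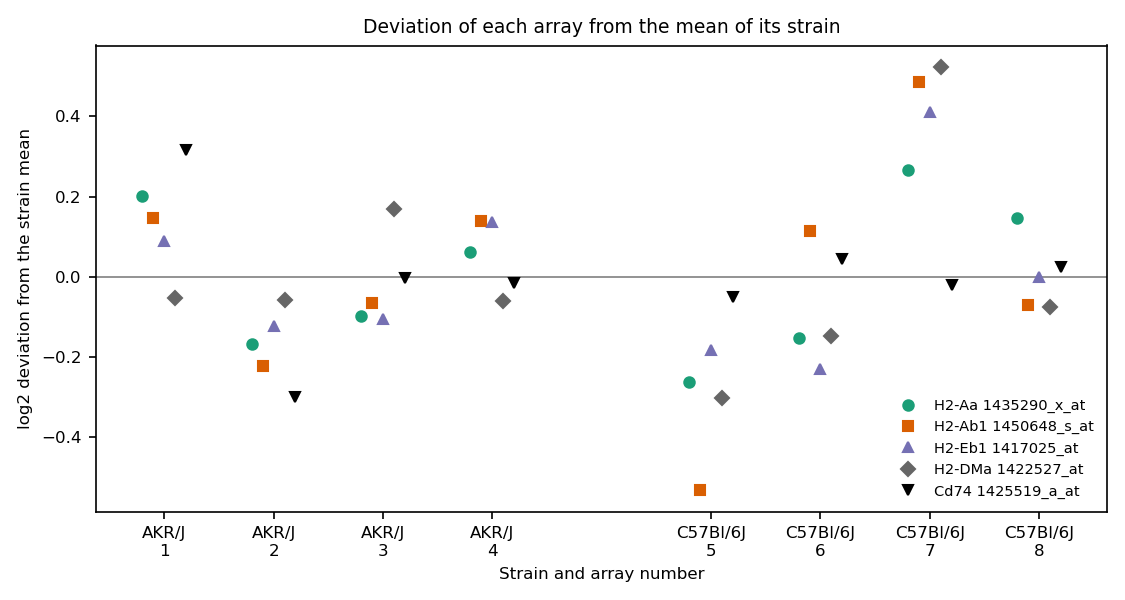
Deviation of each array from the mean of its strain (y axis, log2 GCRMA units) for the brightest tested probe set of 5 class II genes, with arrays 1 to 4 of AKR/J on the left and 5 to 8 of C57Bl/6J on the right. H2-Aa, H2-Ab1, H2-Eb1 and H2-DMa are all highest on C57Bl/6J array 7, where Cd74 lies at -0.02. The H2-Ab1 probe set was detected on 1 of 4 AKR/J arrays.

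Genes were ranked by likeness to the mean of these within-strain deviations over H2-Aa, H2-Ab1, H2-Eb1 and Cd74, with the same H2-Ab1 probe set. The 10 most alike of 10886 genes, at r = 0.948 to 0.973 over 8 arrays, were Adamts5, Hgh1, Itih5, Rps3, Smim27, Rp9, Hif1an, Cd59a, Serpina10 and Cox7a2l. None of these is on the lists of leukocyte markers used here, but a cut this high leaves out markers that follow the pattern less closely. Against the same mean, r ran from -0.34 (Mrc1) to 0.81 (C1qa) among tested macrophage markers. It ran from -0.01 (Lcp1) to 0.83 (Cd52) among genes shared by all leukocytes, and from 0.26 (Cd22) to 0.82 (Jchain) among B cell and plasma cell markers. Endothelial markers ran from -0.29 (Ramp2) to 0.82 (Plvap). Of the 10 most alike genes, Itih5 (log2 difference -1.94, limma adjusted p = 0.0123) and Cd59a (-0.69, adjusted p = 0.0014) were lower in AKR/J. With so many genes and 8 arrays, correlations of this size describe these arrays only.

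Other genes of the class II route were compared list by list, and lists this small allow no conclusion from counts near the share of all genes. Among the DNA-bound factors and coactivators that CIITA works with, 0 of 10 tested genes were lower and 1 was higher in AKR/J, where 8.53% of genes by their brightest tested probe set were lower and 7.79% higher. The list's median difference was -0.08, against 0.00 over all genes tested. The gene that rose was Rfxank, the ankyrin-repeat subunit of RFX, at 5.63 ± 0.17 in AKR/J islets, against 4.90 ± 0.31 in C57Bl/6J islets (SD, n = 4 each; limma adjusted p = 0.0218). It was detected on 1 of 4 C57Bl/6J arrays, and the call was lost without array 1, 2, 4, 5 or 6 (adjusted p up to 0.0616), with no filter (0.0652) and with the Signal (0.128). The RFX subunit genes Rfx5 and Rfxap differed by 0.01 and 0.32, the NF-Y subunit genes Nfya, Nfyb and Nfyc by -0.32, 0.04 and -0.07, Creb1 by -0.26, and the acetyltransferase genes Ep300, Crebbp and Kat2b by -0.29, -0.19 and -0.10, and none of these passed (limma adjusted p from 0.0972 to 0.985). With the Signal, Rfxap was called higher in AKR/J (0.56, adjusted p = 0.0342), so which RFX gene passed depended on the scale.

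The counts of the next lists stand beside 8.53% of genes called lower and 7.79% higher by their brightest tested probe set. Of 4 tested genes on the route from interferon gamma to Ciita, 0 passed. The receptor chain gene Ifngr1 differed by -0.38 (limma adjusted p = 0.0586), the kinase gene Jak1 by -0.25 and the transcription factor gene Irf1 by 0.01. Ifng itself was not detected on any array. Of 7 tested genes of class II processing and turnover, 2 were lower in AKR/J and 0 higher, with a list median of 0.17. They were Ctss, which encodes the protease that trims the invariant chain (9.57 ± 0.16 in AKR/J islets, against 10.87 ± 0.23 in C57Bl/6J islets, SD, n = 4 each; limma adjusted p = 0.000574), and Marchf8, a membrane ubiquitin ligase gene (9.42 ± 0.11 in AKR/J islets, against 9.98 ± 0.08 in C57Bl/6J islets; adjusted p = 0.00278). Of 3 tested co-stimulation genes 0 passed, with Cd83, a surface marker of activated antigen-presenting cells, at -0.48 (adjusted p = 0.169) and the adhesion gene Icam1 at -0.23 (adjusted p = 0.55). Among accessory class II genes, H2-DMb2 differed by 0.01 by its own tested probe set (adjusted p = 0.953), and H2-Oa, an inhibitor of the exchange factor, was not detected.

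Few of the genes that lie among the class II genes on the chromosome could be tested. In the RefSeq gene order, 8 other genes lie between H2-DMa and H2-Ea. Of the 3 with a tested probe set, which include the H2-DMb2 given above, 0 passed. Among all genes by their brightest tested probe set 8.53% were lower and 7.79% higher, so 0 of 3 allows no contrast with the members. The immunoproteasome subunit genes Psmb8 and Psmb9 were detected on all 8 arrays and differed by -0.04 (95% interval -0.39 to 0.32; limma adjusted p = 0.9) and -0.07 (95% interval -0.66 to 0.53; adjusted p = 0.895). The peptide transporter gene Tap1 was not detected on any array.

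Some markers of macrophages, which make class II, were also lower on the AKR/J arrays. Among all genes by their brightest tested probe set, 8.53% were called lower in AKR/J and 7.79% higher. Of 15 tested macrophage markers 8 were lower in AKR/J and 0 higher, with a median of -0.57. The summed intensity of all 17 macrophage markers measured was 1392 to 1759 in AKR/J, against 2040 to 2526 in C57Bl/6J. The macrophage markers with the smallest p were the complement genes C1qc (-1.81) and C1qb (-1.22), the pore-forming protein gene Mpeg1 (-1.25) and the growth factor receptor gene Csf1r (-0.92), with limma adjusted p from 0.000219 to 0.00932. The complement gene C1qa was at 9.15 ± 0.17 in AKR/J islets, against 9.16 ± 0.15 in C57Bl/6J islets. The macrophage count was 5 without AKR/J array 1 or 2, 4 without C57Bl/6J array 6 and 4 with no filter on dim probe sets. Cx3cr1, a marker of tissue macrophages, was not detected on any array. Of 5 genes shared by all leukocytes, 2 were lower in AKR/J and 0 higher, which were Ptprc (-0.82, limma adjusted p = 0.034) and Cd53 (-0.71, adjusted p = 0.0398). The count was 0 with no filter, 0 without AKR/J array 3, or C57Bl/6J array 6, 7 or 8, and 1 without AKR/J array 2 or 4. Their sum was 283.9 to 470.5 in AKR/J, against 495.4 to 606.6 in C57Bl/6J.

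Lymphocyte and dendritic cell markers were mostly dim. Of 9 measured dendritic cell markers 5 were not detected on any array (Batf3, Cd209a, Clec10a, Flt3 and Xcr1), and Irf8, the single one tested, differed by -0.32 (limma adjusted p = 0.374). The dendritic cell sum was 71.0 to 89.5 in AKR/J, against 86.1 to 105.3 in C57Bl/6J, so the strains overlapped. Of 6 tested B cell and plasma cell markers 1 was lower in AKR/J, the immunoglobulin A heavy chain gene Igha (-3.88, limma adjusted p = 0.00224). Among all genes by their brightest tested probe set 8.53% were lower. Cd79a, Ms4a1, Cd22, Ighm and Jchain were tested and not called. The median of the 6 was 0.17, and 2 of the 6 differences were negative. The B cell markers Pax5 and Blk were not detected on any array. The sum of 10 such markers was 118.2 to 690.6 in AKR/J islets, against 380.4 to 1048 in C57Bl/6J islets. Of 8 measured T cell markers 7 were not detected on any array, among them Cd3e, Cd3g, Cd3d and Cd4, and Cd8a differed by 0.03 (adjusted p = 0.756). The part of these cell types in the class II differences was not tested.

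Markers of other cells in the preparation did not all move one way. The counts stand beside 8.53% of genes called lower in AKR/J and 7.79% higher by their brightest tested probe set. Of 10 tested acinar markers 9 were lower in AKR/J and 0 higher (median -0.65), led by Cela2a (-0.81), Gp2 (-1.77), Ctrl (-0.81) and Cel (-0.61), and 3 passed with the quantile normalized Signal (median -0.28) and 7 with the Signal not normalized further (median -0.59). Of 8 endothelial markers 4 were higher in AKR/J and 0 lower (median 0.37), which were Ramp2 (0.73), Cdh5 (0.69), Esam (0.32) and Tek (0.51), and 1 passed with either Signal setting. The Tek call was lost without AKR/J array 1, 3 or 4 (adjusted p up to 0.0562). Of 8 endocrine markers, the glucose transporter gene Slc2a2 was lower (-0.56) and Ppy, which encodes pancreatic polypeptide, higher (0.89) in AKR/J. The Ppy call was lost without AKR/J array 1, 2 or 3 or C57Bl/6J array 6, 7 or 8 (adjusted p up to 0.0841). Limma adjusted p for these 10 genes ran up to 0.034. Their part in the class II differences was not tested either.

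**Figure D5:**
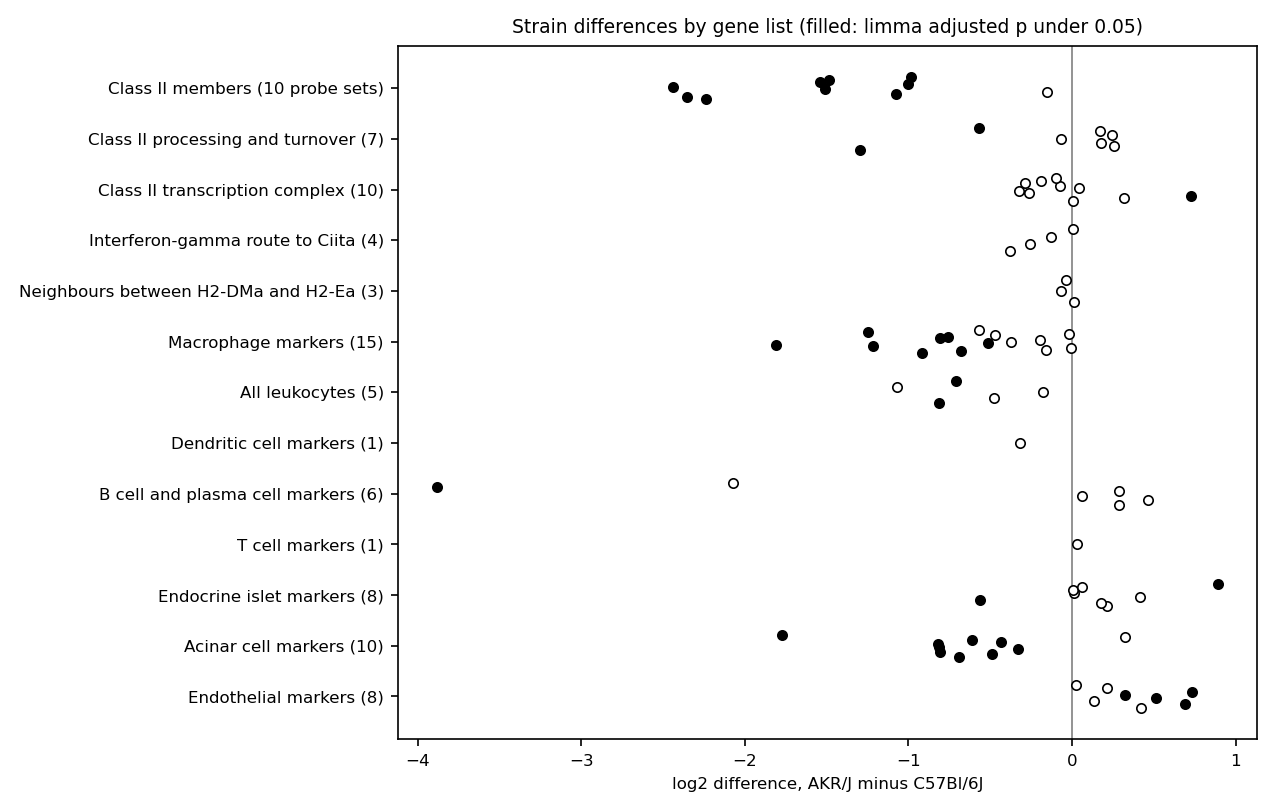
Log2 difference of AKR/J minus C57Bl/6J (x axis) for the tested class II members, as probe sets, and for genes of the other lists, each by its brightest tested probe set, with the number of points in brackets and filled points for an adjusted p under 0.05. Class II members other than H2-DMa lie between -0.98 and -2.44. The 3 tested neighbours on the chromosome lie near 0 and are too few for a contrast with the members.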

How the data were processed

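Total RNA of the islet pools was hybridised to Affymetrix mouse arrays. The value table holds linear intensity values made by the authors with GCRMA, per the submitters' processing notes (version not given in the sources used here), which adjusts background by probe composition, so dim values depend on its model. They were log2-transformed here without further normalization. A second intensity, the MAS5-type Signal, and a detection p-value were deposited for each array, per the file headers. For the alternatives the Signal was floored at the 5th percentile of each array, log2-transformed and, where named, quantile normalized. Of the annotation, 34945 probe sets name 1 gene, 932 several and 9160 none.

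Strains were compared with limma 3.58.1 (R 4.3.3) on 20772 probe sets with Benjamini-Hochberg adjustment, a step tested on simulated data. Ratios to Cd74 were tested by exact permutation. A list gene was represented by its brightest tested probe set. Genes named are the members, up to 4 called genes of each list by p or the 2 brightest where none was called, the CIITA partners and the 10 most alike genes. C1qa, Cx3cr1, Tap1, H2-Oa, Ifngr1, Ifng, undetected markers and the B cell and plasma cell markers not called were added after their values were seen. So were the ratios to Cd74, the motifs and the neighbour list. Members and lists were chosen with earlier results of these data known. Samples were separate pools per the labels, whose spread p-values measure. The number of arrays limits precision. No scan date or slide is given, so no batch was fitted. Figures used matplotlib 3.10.9 under Python 3.11.15.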

Additional observations from a re-analysis of the deposited data

Results flagged for a closer look

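H2-DMa 1422527_at was at 5.26 on AKR/J array 3, while the other 3 AKR/J arrays lay between 5.03 and 5.04, so that the gap was 0.974 of the range, above Dixon's 95% critical value for 4 samples. Among the 20 groups of 4 arrays examined this was the only such case, and chance gives about 1 in 20.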

How the results depend on the processing

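No paired analysis was possible because the titles share no sample number between AKR/J and C57Bl/6J. The count of class II probe sets lower in AKR/J was 9 of 10, and it was 9 without each array in turn, with array weights, with trend and robust variance, with median centring, with a further quantile normalization, with no filter and with the array subset as a term, and 8 with either Signal setting, where H2-Aa 1438858_x_at missed (adjusted p = 0.0517 and 0.0512) although its difference was larger (-2.13 and -2.14, against -1.07 by GCRMA). It was 4 among probe sets detected on all 8 arrays and 1, H2-Eb1, without probe sets marked _x_at, _s_at or _a_at, since fewer were then tested. In a split of the arrays known from earlier results of these data, arrays 1, 2, 5 and 6 alone gave 6 calls, 1054 probe sets in all and 15 list genes. With arrays 3, 4, 7 and 8 alone, 4 were called, 403 in all and 4 list genes, with 2 arrays per strain in each. Over all probe sets 2968 were called, and 2047 to 2820 without 1 array. Over the lists 29 genes were called, 17 with the quantile normalized Signal (the cause was not tested), 19 without those suffixes, and 21 to 28 without 1 array. H2-DMa changed sign without a call with arrays 1, 2, 5 and 6 alone (0.02). The size of H2-Ab1 1450648_s_at ran from -1.29 to -2.62 over all alternatives, that of H2-Aa 1443783_x_at from -2.05 to -4.31 and that of Cd74 from -0.79 to -1.09. Signals near background limit what can be said of H2-Ea, H2-DMb1 and Ciita. In these subsets Cd74 missed with arrays 1, 2, 5 and 6 (adjusted p = 0.107) and H2-Eb1 with arrays 3, 4, 7 and 8 (adjusted p = 0.0504). With 1 array left out, the ratios to Cd74 kept their direction.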
